A study of Homo sapiens with 44 samples.

Results

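The effect of 6 days of METTL3 inhibition on Kelly cells was described here from their input RNA, that is, poly(A) RNA sequenced without an m6A pulldown. Kelly is an established human neuroblastoma cell line with amplified MYCN, wild type for the genotype given in the labels, and it stands here for 1 line in culture. STM2457 is a small-molecule inhibitor of METTL3, the catalytic subunit of the enzyme complex that writes N6-methyladenosine (m6A) on messenger RNA. The members were the 6 libraries of Kelly cells labelled input and 6 days, 3 given 8 µM STM2457 and 3 given the solvent DMSO, out of 44 samples in the series and 22 with input RNA. Used for comparison were the Kelly inputs of 1 day (3 with 8 µM STM2457, 3 with DMSO), the inputs of NGP, another MYCN-amplified neuroblastoma line, at 6 days (3 with 8 µM STM2457, 3 with DMSO), the Kelly pulldown libraries of 6 days (3 and 3) and the DMSO pulldown of 1 day (3). The comparison asked which transcripts differ in level after prolonged inhibition, and the description concentrates on functions other than the amino acid response, the set of genes that ATF4 activates when amino acids are short or the integrated stress response is on. The labels number the replicates but do not say that they were separate cultures, so the p-values measure the spread between these libraries, which may be technical.

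m6A is placed mostly near stop codons and in long internal exons of messenger RNA, and YTH-domain proteins that bind it speed the decay of the RNA or alter its translation. Neuroblastoma arises from the sympathoadrenal lineage of the neural crest. Its cells keep an adrenergic program run by transcription factors such as HAND2 and GATA3, make catecholamines, and can extend neurites when they differentiate. Bulk RNA cannot tell fewer cells with a transcript from less of that transcript in each cell.

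The 3 DMSO libraries held 12.1 to 12.8 M counted fragments. The STM2457 libraries held 28.7, 31.5 and 5.77 M, so replicate 3 was the shallowest of the 6 and its low genes are the least precisely measured. Mitochondrially encoded genes took 4.49% to 4.57% of the counts with DMSO and 5.09%, 4.06% and 1.79% with STM2457, the lowest again in replicate 3. Log2 levels correlated at 0.988 within DMSO, at 0.980 to 0.992 within STM2457 and at 0.965 to 0.977 between the groups. The lineage markers matched the label: HAND2 ran from 2430 to 2542 CPM (counts scaled to the size of the library) with DMSO and from 2560 to 2801 CPM with STM2457, and MYCN from 5370 to 5614 and from 6069 to 7103 CPM. Of 14 markers of blood and endothelium 7 had no count in any library and the whole list summed to 10.0 to 16.9 CPM. METTL3 itself stood at 100.2, 92.9 and 92.6 CPM in the DMSO libraries and 92.3, 97.2 and 104 CPM in the STM2457 libraries, and its adjusted p was 0.783, which is no check of an inhibitor that acts on the protein. MAT2A, which makes the methyl donor for m6A and carries METTL16-dependent sites, stood at 125, 122 and 123 against 111, 106 and 108 CPM (log2 change -0.19 ± 0.0599 (SE), adjusted p = 0.0311). That call was lost under several alternatives, DESeq2 among them (adjusted p = 0.0563).

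After 6 days 26.6% of the 12773 genes tested differed between the groups (edgeR's quasi-likelihood test, Benjamini-Hochberg adjusted p under 0.05), 11.9% higher and 14.7% lower with STM2457. The amino acid response fell nearly as a block: 50 of its 52 tested members fell, against 14.7% falling in the background, and its deepest falls were INHBE (-4.57 log2), CHAC1 (-3.93) and STC2 (-3.55). With 52 members tested, the list could make up only a small share of the whole. Of 3396 genes called, 3346 lay outside that list, and so did 259 of the 284 that fell at least 2-fold. Whether genes outside the list belong to the same response was not tested. With library totals alone and no TMM factors the median of all genes moved from -0.0045 to 0.103 log2, and the split of calls turned from 1521 up and 1875 down to 2670 up and 1250 down, so the balance between rises and falls is relative to the scaling. A single fit over all 22 inputs called 340 up and 451 down. Without STM2457 replicate 3, the calls were 1585 up and 1883 down. List medians close to 0 move with the scaling too: those of the synaptic vesicle, immediate early, histone, cholesterol, fatty acid, heat shock and lysosome lists went from just below 0 to just above it with library totals alone, and for those lists only the counts are given. A signed value given for a gene is its log2 change, STM2457 minus DMSO. Of 197 genes recomputed under the alternatives, 72 lost their call in the fit over all 22 inputs. The calls of SV2C, CTSB, TP53INP1, PPAN, SCAP, ERN1, JUND, STAT2, SUFU, HNRNPD, MYCN, BOC, CCND1, CDK6, H2BC9, WNT4, CACNA1G, GAS1 and HIF1A, which are named here, were lost when a library was left out or under another setting.

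**Figure D1:**
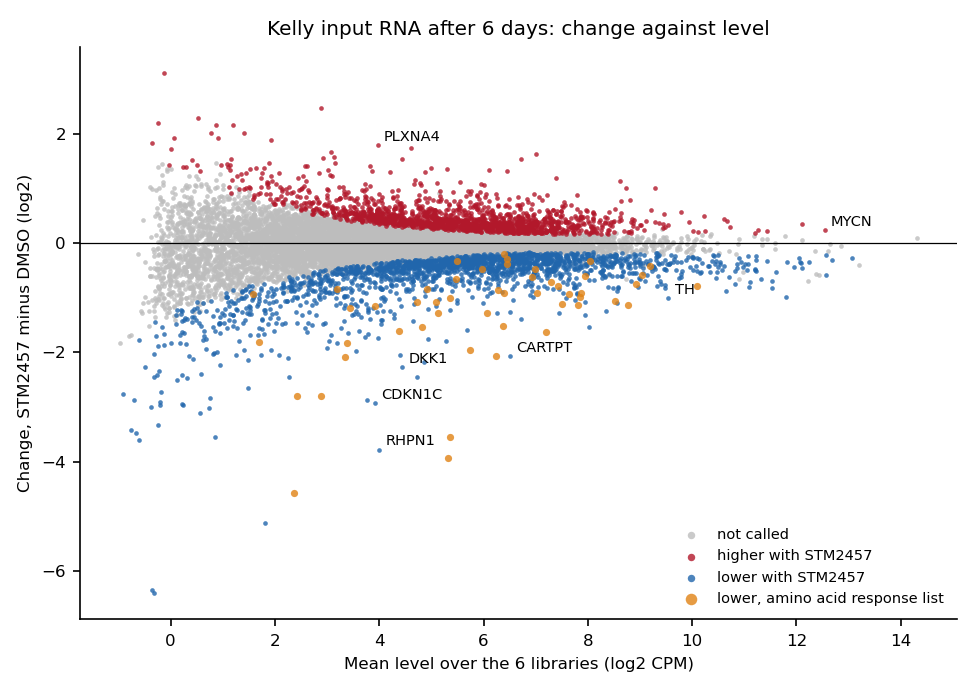
Change in each of the 12773 genes tested (STM2457 minus DMSO, log2, vertical axis) against its mean level over the 6 libraries (log2 CPM, horizontal axis), with genes called higher in red, called lower in blue, called lower in the amino acid response list in orange and not called in grey. The falls reach further from 0 than the rises, and RHPN1 and CDKN1C lie below most of the orange points at their level.

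The 12 largest rises outside the amino acid response list, among called genes with no overlap between the groups and a mean level of 2 log2 CPM or more, ran from 2.67-fold to 3.49-fold. Described here are 11 of them. They include cell surface receptors, a guidance receptor and a transcription factor of neural crest development. In 41.4% of all genes tested the treated and control libraries did not overlap, and for these 24 leading genes that was a condition of the choice. PLXNA4, a plexin receptor for repulsive semaphorins on axons (chromosome 7, 132123332 to 132648688, - strand, GRCh38), was measured at 8.69, 5.89 and 5.6 CPM in the DMSO libraries and 22.9, 24.3 and 23 CPM in the STM2457 libraries. All 3 treated libraries were above every control (log2 change 1.80 ± 0.156 (SE), adjusted p = 4.73e-07). ARHGEF28, an exchange factor for small GTPases that shape the actin cytoskeleton (chromosome 5, 73626158 to 73941993, + strand), was at 12.7, 9.28 and 10.7 CPM in the DMSO libraries and 37.9, 39.1 and 31.2 CPM in the STM2457 libraries (log2 change 1.75 ± 0.132 (SE), adjusted p = 1.09e-07). Its treated libraries were again all above the controls, with replicate 3 the lowest of them.

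SAMD11, a sterile alpha motif protein (chromosome 1, 923928 to 944581, + strand), was at 65.4, 58.4 and 64.1 CPM in the DMSO libraries and 180.1, 193 and 209 CPM in the STM2457 libraries (log2 change 1.63 ± 0.0735 (SE), adjusted p = 3.71e-10). FOXC1, a forkhead factor of neural crest and mesoderm, was at 10.3, 11.5 and 10.5 against 29.4, 29.2 and 38 CPM (log2 change 1.55 ± 0.131 (SE), adjusted p = 3.63e-07), and replicate 3 was the highest. CHRM1, a muscarinic acetylcholine receptor, was at 3.61, 4.68 and 4.24 against 11.2, 11.8 and 15.4 CPM (log2 change 1.57 ± 0.188 (SE), adjusted p = 1.34e-05). P2RY11, a receptor for extracellular ATP, was at 7.57, 7.75 and 6.87 against 18.4, 22.9 and 17.4 CPM (log2 change 1.42 ± 0.147 (SE), adjusted p = 3.29e-06), although its exons overlap those of PPAN, EIF3G and a PPAN read-through gene. TRIL, an accessory protein of Toll-like receptor signalling, was at 4.22, 3.71 and 2.88 against 10.6, 9.97 and 11.7 CPM (log2 change 1.56 ± 0.194 (SE), adjusted p = 2.05e-05).

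The remaining rises were of low level. RHBG, an ammonium transporter, was at 3.96, 3.23 and 4.24 against 11.2, 12.6 and 12.7 CPM (log2 change 1.67 ± 0.179 (SE), adjusted p = 4.68e-06). IGFBP3, which binds insulin-like growth factors in the medium, was at 2.58, 3.39 and 3.39 against 8.01, 8.11 and 9.26 CPM (log2 change 1.41 ± 0.207 (SE), adjusted p = 9.63e-05). NT5C1A, a cytosolic AMP nucleotidase, changed by 1.42 log2 and RWDD3, which promotes sumoylation and shares exons with a read-through gene, by 1.47. The calls of NT5C1A and RWDD3 were lost in the fit over all 22 inputs (adjusted p = 0.0626 and 0.109). All 12 rises were higher with STM2457 in the 6 day pulldown libraries of the same treatments, from 0.10 log2 in RHBG to 2.58 in NT5C1A. The labels do not say whether pulldown and input came from separate RNA, and the share over all genes is not given. The agreement is therefore no independent check.

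**Figure D2:**
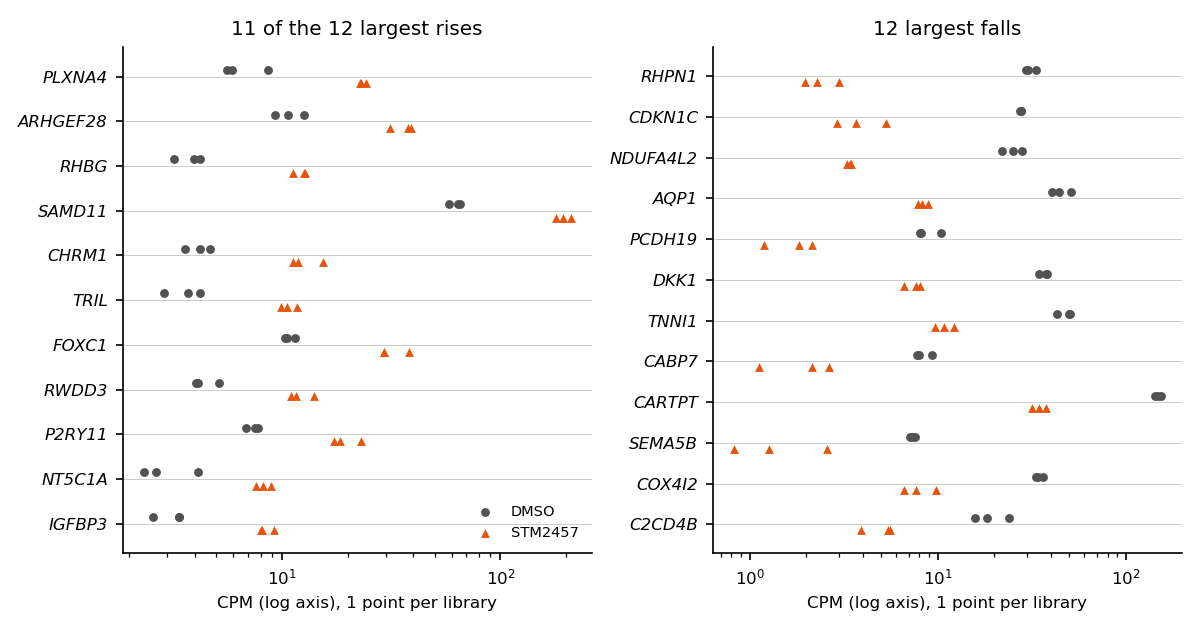
Levels of 11 of the 12 largest rises (left) and of the 12 largest falls (right) outside the amino acid response list, in CPM on a log axis, with 1 point per library (grey circles DMSO, orange triangles STM2457). No treated point lies among the control points of its gene, which was a condition of the choice, and the spread within a group is widest in genes near 1 CPM such as SEMA5B.

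The 12 largest falls ran from 3.95-fold to 13.7-fold. RHPN1, a rhophilin that binds small GTPases (chromosome 8, 143368876 to 143384221, + strand), was measured at 30.0, 29.4 and 33.4 CPM in the DMSO libraries and 1.98, 2.29 and 2.98 CPM in the STM2457 libraries. The controls lay above every treated library (log2 change -3.78 ± 0.155 (SE), adjusted p = 1.51e-10). CDKN1C, the cyclin-dependent kinase inhibitor p57 (chromosome 11, 2883213 to 2885773, - strand), was at 27.3, 27.8 and 27.7 CPM in the DMSO libraries and 2.93, 3.66 and 5.29 CPM in the STM2457 libraries (log2 change -2.94 ± 0.164 (SE), adjusted p = 3.73e-09). Its control libraries were nearly identical and its treated ones low. NDUFA4L2 and COX4I2 are the hypoxia-induced counterparts of housekeeping subunits of the cytochrome c oxidase complex. NDUFA4L2 was at 28.1, 22 and 25.3 against 3.41, 3.48 and 3.31 CPM (log2 change -2.87 ± 0.15 (SE), adjusted p = 1.72e-09). Its exons overlap those of SHMT2, and counts in the shared part cannot be told apart. COX4I2 was at 33.3, 36.3 and 34.2 against 7.71, 9.82 and 6.61 CPM (log2 change -2.05 ± 0.133 (SE), adjusted p = 1.87e-08).

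Membrane and secreted proteins filled most of the other places. AQP1, a water channel, was at 40.4, 44.3 and 51 against 7.88, 8.29 and 8.93 CPM (log2 change -2.46 ± 0.12 (SE), adjusted p = 8.26e-10). PCDH19, a protocadherin of neuronal adhesion, was at 8.17, 10.4 and 8.05 against 1.19, 1.83 and 2.15 CPM (log2 change -2.46 ± 0.256 (SE), adjusted p = 3.59e-06). DKK1, a secreted inhibitor of WNT receptors, was at 37.7, 38.2 and 34.8 against 8.08, 7.65 and 6.61 CPM (log2 change -2.27 ± 0.117 (SE), adjusted p = 1.53e-09). CARTPT, the precursor of the CART neuropeptide, was the most abundant of these genes at 143, 153 and 148 CPM in the DMSO libraries and 37.7, 34.8 and 31.7 CPM in the STM2457 libraries (log2 change -2.07 ± 0.0743 (SE), adjusted p = 3e-11). Its treated libraries stayed within 31.7 to 37.7 CPM. SEMA5B, a semaphorin, changed by -2.05 log2, CABP7, a calcium-binding protein, by -2.09, C2CD4B by -1.98 and TNNI1, the slow skeletal isoform of troponin I, by -2.17. SEMA5B lost its call in the fit over all 22 inputs (adjusted p = 0.0794). All 12 were lower in the 6 day pulldown libraries too, from -0.67 log2 in TNNI1 to -7.62 in SEMA5B. As for the rises, this is no independent check.

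Genes that oxygen shortage induces fell more often than the background. Of 29 tested, 14 fell and 2 rose, with a median of -0.33 log2 against -0.0045 over all genes and 14.7% falling in the background. STC2 and DDIT4 among the falls are also in the amino acid response list. DDIT4, an inhibitor of mTORC1, was at 227, 219 and 216 against 66.9, 71.7 and 78.8 CPM (log2 change -1.62 ± 0.0692 (SE), adjusted p = 2.35e-10). PPFIA4, a liprin, was at 91.3, 85.4 and 89.3 against 43.2, 47.5 and 46.1 CPM (log2 change -0.96 ± 0.0733 (SE), adjusted p = 1.28e-07). Both risers were transcription factors of the response itself: EPAS1, which encodes HIF-2α, was at 536, 553 and 540.1 against 654, 708 and 783 CPM (log2 change 0.40 ± 0.0698 (SE), adjusted p = 0.000525), and HIF1A changed by 0.32 (adjusted p = 0.00869).

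Glycolytic genes went the same way: 16 of 24 fell, 2 rose, and the median was -0.38. SLC16A3, the lactate exporter MCT4, was at 48.4, 48.1 and 47.2 CPM in the DMSO libraries and 12.4, 16.5 and 12.9 CPM in the STM2457 libraries (log2 change -1.76 ± 0.115 (SE), adjusted p = 1.93e-08). All its treated libraries were far below the controls. SLC2A1, the glucose transporter GLUT1, was at 193, 196 and 183 against 102, 112 and 112 CPM (log2 change -0.81 ± 0.0652 (SE), adjusted p = 2.06e-07), and ALDOC, an aldolase, at 108, 102 and 111 against 51.9, 60.1 and 60.8 CPM (log2 change -0.90 ± 0.0768 (SE), adjusted p = 3.95e-07). ENO3, the muscle enolase, went up (27.3, 26.5 and 24.9 against 43.5, 46.1 and 44.6 CPM, log2 change 0.77 ± 0.0896 (SE), adjusted p = 1.06e-05). Other genes of the same range of exon length had a median of 0.014 and 11.7% of them fell, against 66.7% in the list.

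Promoter sequence was available for 25 of the 29 hypoxia genes in RefSeq (GRCh38.p14, 250 bases before to 50 after the start). The core of the hypoxia response element, ACGTG on either strand, was present in 15 of them (60%), in 36.4% of the glycolysis list and in 26.5% of all 10212 promoters matched. It overlaps the E-box CACGTG, which 24% of the hypoxia promoters and 10.3% of all held. Among genes called up, 25.4% held ACGTG, and among genes called down 27.6%, so over all calls the shares were close to the background. The 4 deepest falls of both lists that hold it are shown, as the 250 bases before the start with each match in capitals, because they are the falls of the lists in which the core can be read close to the start.
CA9 (chr9:35673678-35673927, + strand): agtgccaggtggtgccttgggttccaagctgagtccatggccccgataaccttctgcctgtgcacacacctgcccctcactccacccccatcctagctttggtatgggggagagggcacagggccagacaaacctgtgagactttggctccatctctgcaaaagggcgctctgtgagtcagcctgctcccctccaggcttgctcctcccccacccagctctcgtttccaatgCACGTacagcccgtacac
DDIT4 (chr10:72273674-72273923, + strand): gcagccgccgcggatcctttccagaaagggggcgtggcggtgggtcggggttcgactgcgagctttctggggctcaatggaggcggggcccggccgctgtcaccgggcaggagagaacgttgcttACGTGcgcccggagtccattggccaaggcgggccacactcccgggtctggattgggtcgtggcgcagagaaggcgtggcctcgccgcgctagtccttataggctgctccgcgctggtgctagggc
PPFIA4 (chr1:203026241-203026490, + strand): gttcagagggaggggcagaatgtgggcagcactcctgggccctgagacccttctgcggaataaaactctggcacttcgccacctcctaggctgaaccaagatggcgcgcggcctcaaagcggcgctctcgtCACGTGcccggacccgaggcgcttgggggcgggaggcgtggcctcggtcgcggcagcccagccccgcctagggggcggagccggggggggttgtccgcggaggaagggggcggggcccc
ALDOC (chr17:28576896-28577145, - strand): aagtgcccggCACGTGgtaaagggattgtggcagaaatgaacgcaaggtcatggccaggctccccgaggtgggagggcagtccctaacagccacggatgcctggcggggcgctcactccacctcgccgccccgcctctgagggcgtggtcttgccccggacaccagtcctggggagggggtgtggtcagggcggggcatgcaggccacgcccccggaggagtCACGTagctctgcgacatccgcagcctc
CA9 encodes a carbonic anhydrase. It was near the lower limit of detection (4.82, 3.23 and 2.12 against 0.511, 0.427 and 0 CPM, -3.03 log2, adjusted p = 0.000195), and its treated replicate 3 had no count. In CA9 and DDIT4 there was 1 match, in PPFIA4 the palindromic E-box that is read on both strands, and in ALDOC such an E-box and 1 more match nearer the start. A match describes these letters only and shows no binding.

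Mitochondrial energy genes encoded in the nucleus fell together, each by a small amount. Of 63 respiratory chain and ATP synthase genes 43 fell and 1 rose, with a median of -0.41 log2, and 2 of them were above 0. NDUFS6 of complex I was at 274, 269 and 288 against 154, 153 and 175 CPM (log2 change -0.80 ± 0.067 (SE), adjusted p = 3.58e-07), NDUFA1 of the same complex at 81.6, 81.3 and 98.8 against 52.4, 52.3 and 40.8 CPM (log2 change -0.82 ± 0.0987 (SE), adjusted p = 1.51e-05), and ATP5MC3, a ring subunit of ATP synthase, at 234, 219.9 and 236 against 144, 139 and 136 CPM (log2 change -0.72 ± 0.0609 (SE), adjusted p = 3.78e-07). The exception was UQCRFS1, the Rieske protein of complex III, at 0.21 log2, adjusted p = 0.0335, a call lost when any of 4 libraries was left out. Other genes of the list's range of exon length had a median of -0.057 and 19.1% of them fell, against 68.3% in the list.

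The 13 respiratory genes of mitochondrial DNA did not give a stable result. MT-ND1 was the 1 called, at 2768, 2692 and 2803 against 2294, 1880 and 858 CPM (log2 change -0.71 ± 0.216 (SE), adjusted p = 0.0219), and its lowest value was in STM2457 replicate 3, the library with the low mitochondrial share. Without that library 5 of the 13 fell and the median of the list was -0.14 instead of -0.56. Without STM2457 replicate 1 10 fell. The nuclear genes moved little with it: 44 fell without STM2457 replicate 3. In the citric acid cycle 10 of 25 fell and 2 rose (median -0.18), against 14.7% and 11.9% of all genes. PCK2, the mitochondrial PEP carboxykinase and also a member of the amino acid response list, was at 109, 108 and 115 against 52.2, 64.2 and 60.0 CPM (log2 change -0.91 ± 0.0797 (SE), adjusted p = 5.15e-07), SDHB of succinate dehydrogenase changed by -0.51 log2, adjusted p = 1.97e-05, PDHA1 of pyruvate dehydrogenase by -0.36 log2, adjusted p = 0.00123, and OGDH rose by 0.40 log2, adjusted p = 0.00029.

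The cytosolic ribosome showed the widest fall of any list by number of genes. Of 76 ribosomal protein genes 59 fell and 2 rose, with a median of -0.39 log2, and as a share of all counts they went from 16.0% to 16.2% with DMSO to 13.4% to 13.9% with STM2457. RPS26 was at 909, 906 and 913 CPM in the DMSO libraries and 502, 519.6 and 527 CPM in the STM2457 libraries (log2 change -0.82 ± 0.0599 (SE), adjusted p = 7.99e-08). RPL35 was at 3795, 3508 and 3695 against 2239, 2295 and 2257 CPM (log2 change -0.70 ± 0.0628 (SE), adjusted p = 7.42e-07) and RPS29 at 333, 342 and 355 against 225, 217 and 203 CPM (log2 change -0.67 ± 0.0621 (SE), adjusted p = 1e-06). RPL22 was higher, at 0.32 log2, adjusted p = 0.0254, a call lost without any of 3 single libraries. Ribosomal protein genes have many processed pseudogenes, among which reads can be split. Genes of like exon length outside the list had a median of -0.041 and 17.1% of them fell, against 77.6% in the list. Ribosome biogenesis factors were near the background of 11.9% rising and 14.7% falling: 4 of 40 rose and 7 fell (median 0.03, 4 falls without DMSO replicate 3), with HEATR1 at 0.45 log2, adjusted p = 0.000864, PPAN at 0.48 log2, adjusted p = 0.0326, NHP2 at -0.38 log2, adjusted p = 0.000608 and RRP9 at -0.36 log2, adjusted p = 0.000502. HEATR1 works in early processing of the ribosomal RNA precursor, and NHP2 belongs to the H/ACA particles that guide pseudouridylation.

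Transcripts of ribosomal proteins begin with a C followed by a run of pyrimidines, the terminal oligopyrimidine sequence through which mTORC1 signalling regulates their translation. A C followed by at least 4 further pyrimidines, searched within 10 bases of the RefSeq start on the transcribed strand, was found in 50 of 61 ribosomal protein genes with a sequence (82.0%) and in 29.1% of all promoters. It was no more frequent in genes called down (28.8%) than in genes called up (33.1%). The 5 deepest falls of the list that hold it are shown for 10 bases before to 20 after the start (GRCh38.p14), with the run in capitals.
RPL38 (chr17:74203668-74203697, + strand): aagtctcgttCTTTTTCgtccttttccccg
RPL35 (chr9:124861938-124861967, - strand): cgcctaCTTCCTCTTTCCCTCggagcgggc
RPS7 (chr2:3575250-3575279, + strand): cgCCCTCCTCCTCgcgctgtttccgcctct
RPL37A (chr2:216498834-216498863, + strand): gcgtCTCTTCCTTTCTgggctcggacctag
RPL24 (chr3:101686699-101686728, - strand): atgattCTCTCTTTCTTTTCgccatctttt
RPL38 was at 2226, 2273 and 2314 against 1445, 1380 and 1238 CPM (log2 change -0.75 ± 0.0696 (SE), adjusted p = 1.08e-06) and RPS7 at 3179, 2979 and 3255 against 1916, 2204 and 1860 CPM (log2 change -0.65 ± 0.0741 (SE), adjusted p = 8.1e-06). The treated libraries of both were below all controls. The log2 changes of RPL37A and RPL24 were -0.63 and -0.62.

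**Figure D3:**
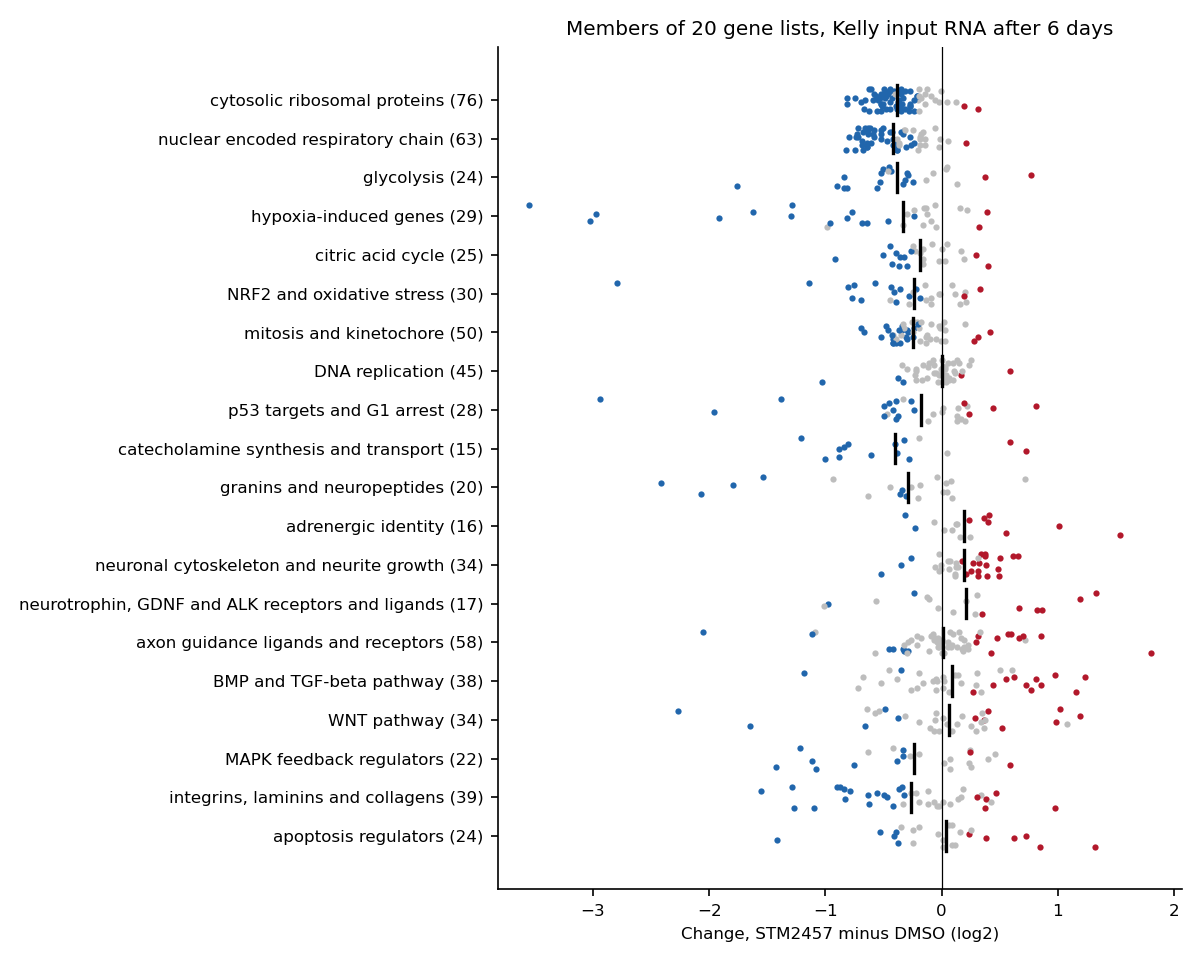
Change of each tested member (STM2457 minus DMSO, log2) in 20 gene lists, with the number tested in brackets, members called higher in red, called lower in blue and not called in grey, and a black bar at the list's median. The ribosomal, respiratory chain and glycolysis medians lie between -0.41 and -0.38, and the adrenergic, neuronal cytoskeleton and neurotrophin receptor medians between 0.19 and 0.21.

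Genes of catecholamine synthesis fell, while a part of the lineage's transcription factors rose. Of 15 genes of transmitter synthesis and transport 11 fell and 2 rose (median -0.40), against 14.7% and 11.9% of all genes. TH, the rate-limiting enzyme of catecholamine synthesis, was at 1028, 986 and 978 CPM in the DMSO libraries and 459.8, 508 and 524 CPM in the STM2457 libraries (log2 change -1.01 ± 0.0669 (SE), adjusted p = 2.35e-08), lower in every treated library than in any control. DDC, the decarboxylase that follows it, was at 510.5, 466 and 488 against 267, 285 and 286 CPM (log2 change -0.81 ± 0.0619 (SE), adjusted p = 1.35e-07), and DBH, which makes noradrenaline, at 1682, 1642 and 1675 against 1231, 1301 and 1313 CPM (log2 change -0.38 ± 0.0625 (SE), adjusted p = 0.000288). CHAT, the enzyme of acetylcholine synthesis, was low throughout, at 5.85, 4.28 and 6.27 against 1.74, 2.9 and 2.48 CPM (log2 change -1.21 ± 0.276 (SE), adjusted p = 0.00377). Both genes that rose handle the finished transmitter: SLC6A2, the noradrenaline reuptake transporter, was at 57.5, 53.1 and 60.3 against 83.8, 88.2 and 84.6 CPM (log2 change 0.59 ± 0.073 (SE), adjusted p = 1.97e-05), and MAOA, which degrades it, at 84.8, 81.6 and 75.3 against 148, 136 and 113 CPM (log2 change 0.73 ± 0.0857 (SE), adjusted p = 1.23e-05).

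Of 20 neuropeptide and granin genes 7 fell and the rest did not pass the test (median -0.28), against 14.7% of all genes falling. Besides CARTPT, SST, which encodes somatostatin, was at 417, 372 and 374 CPM in the DMSO libraries and 126, 141 and 134 CPM in the STM2457 libraries (log2 change -1.54 ± 0.0685 (SE), adjusted p = 3.41e-10). CRH, corticotropin-releasing hormone, was at 14.5, 14.8 and 10.4 against 3.51, 3.99 and 4.13 CPM (log2 change -1.79 ± 0.189 (SE), adjusted p = 4.06e-06). In the adrenergic identity list 7 of 16 rose and 2 fell (median 0.20), against 11.9% and 14.7% of all genes. TBX2 was at 288, 275 and 288 against 532, 565 and 615 CPM (log2 change 1.01 ± 0.066 (SE), adjusted p = 1.94e-08) and GATA3 at 226, 223 and 217 against 312, 313 and 357 CPM (log2 change 0.55 ± 0.066 (SE), adjusted p = 1.34e-05). EYA1 was lower (-0.31 log2, adjusted p = 0.0204), a call lost with library totals alone and without single libraries. GATA2 and HAND2, the most abundant of the list after MYCN, did not pass the test (adjusted p = 0.165 and 0.351), although their treated libraries lay above all controls. Both were called higher with library totals alone (0.235 log2, adjusted p = 0.0146, and 0.197 log2, adjusted p = 0.036), and GATA2 without STM2457 replicate 1 (adjusted p = 0.039).

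The mesenchymal list, which marks the alternative state of neuroblastoma cells, had 5 rises and 3 falls in 17 genes (median 0.21). Over all genes 11.9% rose and 14.7% fell. The list had 3 rises without DMSO replicate 1, and 13 of its 30 genes were too low to test, PRRX1 among them. TEAD1 (0.83 log2, adjusted p = 8.45e-06) and FOSL2 (0.76 log2, adjusted p = 6.71e-06) rose. COL1A1 (-0.996 log2, adjusted p = 4.17e-06) and TWIST1 (-0.34 log2, adjusted p = 0.00136) fell, SPARC was at 0.21 log2, adjusted p = 0.0315, a call lost when single libraries were left out, and VIM was at 58.3, 56.7 and 65.9 against 54.3, 55.4 and 61.5 CPM (adjusted p = 0.457). Of 8 Schwann and glial genes tested 6 fell and the other 2 did not pass the test (median -1.07). The defining Schwann genes were at the floor, with SOX10 and S100B between 0 and 0.241 CPM and CDH19 at 0 in every library, and the falls were in the other genes of the list: NGFR was at 25.3, 20.8 and 21.2 against 11.9, 12.1 and 9.09 CPM (log2 change -0.98 ± 0.135 (SE), adjusted p = 5.73e-05), GAP43 at 358, 343 and 356 against 264, 259 and 308 CPM (log2 change -0.35 ± 0.0694 (SE), adjusted p = 0.00128), and GFAP at 12.7, 7.5 and 7.71 against 2.59, 3.23 and 4.3 CPM (log2 change -1.55 ± 0.254 (SE), adjusted p = 0.000264), while PMP22 had an adjusted p of 0.769. The summed level of the list was 393 to 419 CPM with DMSO and 297 to 341 CPM with STM2457. Leaving out single libraries left 3 to 6 falls, 3 of them without DMSO replicate 3. CD68, the highest of the 3 blood and endothelial genes tested, was at 12.4, 12.3 and 8.31 against 8.87, 9.36 and 11.6 CPM, and none of the 3, CD68, KDR and VWF, passed the test (adjusted p = 0.466, 0.382 and 0.292).

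Structural genes of neurites rose more often than the background. Of 34 tested 17 rose and 3 fell, against 11.9% and 14.7% over all genes (median 0.19). MAP1B, a microtubule-associated protein of growing axons, was at 78.2, 81.7 and 81 against 136, 122 and 122 CPM (log2 change 0.66 ± 0.067 (SE), adjusted p = 2.68e-06). NCAM1, a neural adhesion molecule, was at 124, 123 and 137 against 200.3, 197 and 189.9 CPM (log2 change 0.61 ± 0.0639 (SE), adjusted p = 3.45e-06), and TUBB2A, a neuronal tubulin, at 211, 209 and 215 against 303, 289 and 298 CPM (log2 change 0.49 ± 0.0578 (SE), adjusted p = 1.31e-05). UCHL1, an abundant neuronal deubiquitinase, fell from 1470 to 1547 CPM to 960 to 1163 CPM (log2 change -0.52 ± 0.0737 (SE), adjusted p = 7.32e-05). There were 10 rises when DMSO replicate 3 was left out, 11 when DMSO replicate 1 or 2 was, and 22 with library totals alone.

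Receptors for neurotrophic factors rose in part: 6 of 17 rose and 2 fell, against 11.9% and 14.7% of all genes. GFRA2, the co-receptor of neurturin, was at 48.4, 50.8 and 49.3 CPM in the DMSO libraries and 119, 128 and 126 CPM in the STM2457 libraries (log2 change 1.33 ± 0.0676 (SE), adjusted p = 1.41e-09). Its signalling partner RET was at 105, 95.4 and 107 against 222, 227 and 253 CPM (log2 change 1.19 ± 0.0707 (SE), adjusted p = 8.07e-09). In both of these receptors every treated library exceeded every control. NGFR, the low-affinity neurotrophin receptor given above with the glial genes, fell.

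Axon guidance genes had 10 rises and 8 falls in 58 (median 0.01), near the 11.9% of all genes rising and 14.7% falling. The lists that follow are read against the same shares. Besides PLXNA4 and SEMA5B, PLXNA2 was at 0.85 log2, adjusted p = 7.95e-07 and SLIT3 at 0.57 log2, adjusted p = 3.29e-06. Synaptic vesicle genes had 2 rises and 6 falls in 31: SYT5 (-0.57 log2, adjusted p = 3.21e-05) and SYP (-0.29 log2, adjusted p = 0.00157) fell, and SV2C was at 0.85 log2, adjusted p = 0.0309. Synaptic adhesion and scaffold genes had 8 and 3 in 30, with CNTNAP2, a neurexin relative, at 166, 161 and 166 against 81.4, 84.9 and 82.7 CPM (log2 change -0.98 ± 0.0605 (SE), adjusted p = 1.04e-08), IGSF21 at -1.48 log2, adjusted p = 1.09e-05, DLG2 at 0.92 log2, adjusted p = 0.00933 and SHANK1 at 0.51 log2, adjusted p = 4.46e-05. Of 35 voltage-gated channels 7 rose and 3 fell. The potassium channel KCNH2 was at 199, 195 and 193 against 292, 299 and 312 CPM (log2 change 0.62 ± 0.0587 (SE), adjusted p = 1.32e-06), the sodium channel SCN8A at 0.53 log2, adjusted p = 0.000572, KCNH6 at -1.06 log2, adjusted p = 0.000166 and the calcium channel CACNA1G at -1.47 log2, adjusted p = 0.0027. Of 29 transmitter receptors 9 rose and 3 fell. ADRA2A, the inhibitory noradrenaline autoreceptor, was at 16.8, 15.2 and 16.2 against 35.9, 32.7 and 32.7 CPM (log2 change 1.08 ± 0.105 (SE), adjusted p = 1.8e-06), and CHRNA3, the ganglionic nicotinic subunit, at 263, 249 and 255 against 338, 341 and 346 CPM (log2 change 0.42 ± 0.0577 (SE), adjusted p = 5.49e-05). The counts of these lists were small and moved with single libraries. Without STM2457 replicate 2 the rises were 5 in the adhesion, 4 in the channel and 5 in the receptor list. Without DMSO replicate 2 they were 5 in the adhesion and 4 in the channel list, and without DMSO replicate 3 5 in the adhesion list. Axon guidance falls were 4, 5 and 5 without DMSO replicate 1, DMSO replicate 3 and STM2457 replicate 1. The muscarinic receptors moved in opposite directions, CHRM1 up as given above and CHRM3 down (18.9, 13.8 and 15.5 against 7.84, 6.49 and 8.6 CPM, log2 change -1.11 ± 0.163 (SE), adjusted p = 0.000101).

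Among signalling pathways the BMP and TGF-beta list, read against 11.9% of all genes rising and 14.7% falling, had 11 rises and 2 falls in 38 (median 0.09). The inhibitory SMADs, which the pathway itself induces, both rose: SMAD6 was at 16.9, 15.6 and 14.4 against 30.6, 32.5 and 44.6 CPM (log2 change 1.16 ± 0.138 (SE), adjusted p = 1.36e-05) and SMAD7 at 5.85, 3.79 and 5 against 11.4, 11.5 and 11.4 CPM (log2 change 1.23 ± 0.182 (SE), adjusted p = 0.000107). LTBP3, which holds latent TGF-beta in the matrix, rose by 0.81 log2, adjusted p = 1e-06, while the ligand TGFB3 was at 18.7, 21.1 and 18.2 against 8.32, 8.72 and 8.43 CPM (log2 change -1.19 ± 0.13 (SE), adjusted p = 6.14e-06). In the WNT list 7 rose and 5 fell of 34: WNT4 (1.20 log2, adjusted p = 0.0128) and SFRP1 (0.52 log2, adjusted p = 0.00017) rose, and WNT11 (16.5, 16.1 and 17.2 against 4.64, 5.82 and 5.62 CPM, log2 change -1.65 ± 0.153 (SE), adjusted p = 1.05e-06) fell with DKK1. Without DMSO replicate 3 the counts were 4 and 3. In the Notch list 6 rose and 2 fell of 24. The ligand DLL1 (1.22 log2, adjusted p = 0.000344), the target HEYL (0.83 log2, adjusted p = 0.000105) and the co-activator MAML1 (0.35 log2, adjusted p = 0.00349) rose. DLK1, a non-canonical Notch ligand and one of the most abundant transcripts of these cells, was at 4750, 4668 and 4732 CPM in the DMSO libraries and 2234, 2386 and 2569 CPM in the STM2457 libraries (log2 change -0.98 ± 0.0673 (SE), adjusted p = 3.57e-08). In the Hedgehog list 3 rose and 2 fell of 11, with the effector GLI2 at 0.57 log2, adjusted p = 0.000584, its inhibitor SUFU at 0.35 log2, adjusted p = 0.035, and the co-receptors GAS1 at 1.05 log2, adjusted p = 0.00519 and BOC at -0.52 log2, adjusted p = 0.0125.

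Feedback regulators that MAPK signalling induces fell in part, with 8 of 22 falling and 2 rising (median -0.23), against 14.7% and 11.9% of all genes. The count of falls went down to 4 without any 1 of the DMSO libraries or STM2457 replicate 1, and to 5 without STM2457 replicate 2. PHLDA1 was at 36, 38.2 and 35.8 against 12.3, 14.4 and 14.7 CPM (log2 change -1.42 ± 0.109 (SE), adjusted p = 1.36e-07), EPHA2 at 19.1, 18.8 and 17.6 against 7.3, 8.17 and 11.9 CPM (log2 change -1.11 ± 0.16 (SE), adjusted p = 8.61e-05) and SPRY4, an inhibitor of the pathway, at -1.08 log2, adjusted p = 0.00241. DUSP7, a phosphatase for ERK, rose by 0.59 log2, adjusted p = 0.000175. Immediate early genes had 1 rise and 4 falls in 18: ATF3, also in the amino acid response list, was at 44, 42.4 and 40.3 against 14.5, 14.2 and 15 CPM (log2 change -1.54 ± 0.0996 (SE), adjusted p = 1.78e-08), MAFF at -0.85 log2, adjusted p = 5.56e-05, IER5 at -0.57 log2, adjusted p = 1.9e-05 and JUND at 0.23 log2, adjusted p = 0.029. Small GTPases of the actin cytoskeleton and their exchange factors and activators of hydrolysis had 14 and 13 in 88, near the background in both directions. Besides ARHGEF28 and RHPN1, TRIO was at 0.51 log2, adjusted p = 2.91e-05 and ARHGAP36 at -0.70 log2, adjusted p = 1.36e-05.

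Integrins, laminins and collagens fell more often than the background, 18 of 39, with 5 rises (median -0.27). ITGB5, an integrin chain that binds vitronectin, was at 125, 127 and 136 CPM in the DMSO libraries and 54, 56.7 and 48.9 CPM in the STM2457 libraries (log2 change -1.27 ± 0.0719 (SE), adjusted p = 4.4e-09), and the groups were far apart. COL18A1 was at 231, 209 and 231 against 116, 124 and 140.0 CPM (log2 change -0.83 ± 0.0737 (SE), adjusted p = 5.95e-07) and COL11A1 at -1.55 log2, adjusted p = 0.00169, while ITGA1, a collagen receptor chain, rose by 0.97 log2, adjusted p = 0.000865. Cytokine signalling genes gave 2 rises, STAT2 (0.47 log2, adjusted p = 0.0237) and TYK2 (0.30 log2, adjusted p = 0.00316), in 26. Interferon-induced genes gave 3 falls in 20, near the 14.7% of all genes, among them ISG20 (-1.50 log2, adjusted p = 2.75e-05) and HLA-C (-0.88 log2, adjusted p = 1.7e-05).

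Cell cycle lists did not move together. They are read against 14.7% of all genes falling and 11.9% rising. Of 50 mitotic genes 21 fell and 3 rose (median -0.25), whereas of 45 replication genes 3 fell and 2 rose (median 0.00). PTTG1, which encodes securin, was at 148, 140.3 and 143 against 98.1, 87.8 and 77.7 CPM (log2 change -0.70 ± 0.0763 (SE), adjusted p = 5.91e-06), the kinetochore gene CENPH at -0.67 log2, adjusted p = 4.25e-05 and the mitotic kinase AURKB at -0.48 log2, adjusted p = 1.7e-05. FOXM1, the transcription factor that drives many mitotic genes, was higher (144, 133 and 141 against 185, 184 and 189 CPM, log2 change 0.41 ± 0.0605 (SE), adjusted p = 9.63e-05). In replication, RPA3 was at 62.4, 54.1 and 66.7 against 33, 30.3 and 24.1 CPM (log2 change -1.03 ± 0.108 (SE), adjusted p = 3.8e-06), RFC4 at -0.37 log2, adjusted p = 0.00271, CDC45 at -0.33 log2, adjusted p = 0.000733 and FEN1 at 0.59 log2, adjusted p = 4.51e-06. Cyclins, kinases and E2F factors of the start of the cycle were near the background, 3 up and 3 down of 21. CCND1 (0.25 log2, adjusted p = 0.0116) and CDK6 (0.28 log2, adjusted p = 0.0139) rose and CCND3 (-0.48 log2, adjusted p = 0.0023) and TFDP1 (-0.34 log2, adjusted p = 0.000541) fell. Of 25 histone genes 3 rose and 5 fell, with H2AC6 at 0.84 log2, adjusted p = 0.00096, H2BC12 at 0.69 log2, adjusted p = 0.000253, H2BC9 at -1.22 log2, adjusted p = 0.0101 and H2AZ1 at -0.36 log2, adjusted p = 0.000206. The histone falls were 2, 3 and 2 without DMSO replicate 1, STM2457 replicate 1 and STM2457 replicate 2. Replication-dependent histone transcripts lack a poly(A) tail and were read here after poly(A) selection.

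Of 28 p53 targets and arrest genes 12 fell and 4 rose (median -0.18), against 14.7% and 11.9% of all genes. CDKN1A, the p53-induced inhibitor p21, was at 162, 138 and 155 CPM in the DMSO libraries and 50.2, 58.8 and 68.9 CPM in the STM2457 libraries (log2 change -1.38 ± 0.0948 (SE), adjusted p = 3.41e-08). The treated libraries were all below the lowest control. SESN2, a stress-induced sestrin that the amino acid response list also holds, was at 85.6, 81.2 and 90.0 against 19.4, 25.4 and 20.5 CPM (log2 change -1.96 ± 0.101 (SE), adjusted p = 1.53e-09), and TP53INP1 rose by 0.82 log2, adjusted p = 0.0386. Apoptosis regulators split, 6 up and 5 down of 24. BCL2, the anti-apoptotic founder of its family, was at 8.95, 6.54 and 8.65 CPM in the DMSO libraries and 18.6, 21.1 and 20.8 CPM in the STM2457 libraries (log2 change 1.32 ± 0.145 (SE), adjusted p = 6.14e-06). HRK, a pro-apoptotic BH3-only gene of neurons, was at 15, 16.4 and 13.5 against 5.08, 6.16 and 5.46 CPM (log2 change -1.42 ± 0.159 (SE), adjusted p = 7.25e-06), BAX at -0.37 log2, adjusted p = 0.00018 and BOK at 0.73 log2, adjusted p = 7.76e-05.

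Lists of stress and quality control are read against 14.7% of all genes falling and 11.9% rising. Of 32 endoplasmic reticulum genes 11 fell and the rest did not pass the test (median -0.17): XBP1, a transcription factor of the unfolded protein response, was at 264, 249 and 252 against 125, 131 and 125 CPM (log2 change -1 ± 0.0602 (SE), adjusted p = 8.62e-09), HERPUD1 at -0.81 log2, adjusted p = 1.27e-06 and the sensor kinase ERN1 at -1.01 log2, adjusted p = 0.0152. Of 32 cytosolic chaperones 12 fell and 2 rose, among them HSPB1 (-0.45 log2, adjusted p = 6.87e-05), CCT4 (-0.45 log2, adjusted p = 5.9e-05), HSPE1 (-0.67 log2, adjusted p = 0.00308) and, higher, HSPH1 (0.51 log2, adjusted p = 3.43e-05). Of 30 antioxidant genes 14 fell and 2 rose (median -0.23). SLC7A11, the cystine importer and a member of the amino acid response list, was at 12.1, 9.92 and 8.48 against 1.53, 1.07 and 2.48 CPM (log2 change -2.79 ± 0.273 (SE), adjusted p = 1.83e-06). SOD1, the cytosolic superoxide dismutase, was at 805, 802 and 862 against 466, 521 and 541 CPM (log2 change -0.69 ± 0.069 (SE), adjusted p = 2.22e-06), TXN, thioredoxin, at -0.75 log2, adjusted p = 2.33e-06 and KEAP1 at 0.33 log2, adjusted p = 0.00247. Of 39 lysosomal and autophagy genes 7 fell and 1 rose, a share of falls near the background: GABARAPL1 (19.4, 20.9 and 22.2 against 8.32, 10.4 and 8.1 CPM, log2 change -1.19 ± 0.137 (SE), adjusted p = 9.08e-06), TRIB3 (-1.29 log2, adjusted p = 3.18e-07), which the amino acid response list holds as well, and GLA (-0.44 log2, adjusted p = 0.0012) fell, and CTSB was at 0.21 log2, adjusted p = 0.042.

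Lipid genes gave few calls, which are read against 14.7% of all genes falling and 11.9% rising. Of 31 cholesterol genes 7 fell and 1 rose: SREBF1, the transcription factor of lipid synthesis, was at 180.5, 179 and 186 against 101, 111 and 106 CPM (log2 change -0.78 ± 0.0624 (SE), adjusted p = 2.06e-07), MVK at -0.61 log2, adjusted p = 0.000293, FDPS at -0.40 log2, adjusted p = 0.000216 and SCAP at 0.22 log2, adjusted p = 0.0407. Of 33 fatty acid genes 7 fell and 1 rose, with ETFB, an electron carrier of fatty acid oxidation, at 70.5, 74.2 and 74.7 against 35.9, 37.5 and 37.9 CPM (log2 change -0.98 ± 0.0757 (SE), adjusted p = 1.37e-07), ACADVL at -0.54 log2, adjusted p = 1.1e-05, ME1 at -0.81 log2, adjusted p = 0.000109 and SCD5 at 0.79 log2, adjusted p = 0.00373. The m6A machinery had 8 rises and 2 falls in 26, against 11.9% and 14.7% of all genes, with a median of 0.10 log2 (0.21 with library totals alone): RBM15B, which guides the writer complex, was at 81.6, 77.4 and 68.8 against 118, 126 and 127 CPM (log2 change 0.70 ± 0.0722 (SE), adjusted p = 3.04e-06), its scaffold VIRMA at 0.57 log2, adjusted p = 0.000377, the demethylase FTO at 0.54 log2, adjusted p = 0.00218 and METTL5, which methylates ribosomal RNA, at -0.54 log2, adjusted p = 0.000186. SR and hnRNP splicing factors had 5 rises and 2 falls in 46, under the background in both directions, with NOVA2 at 0.63 log2, adjusted p = 0.00023, HNRNPF at 0.45 log2, adjusted p = 3.4e-05, SON at 0.30 log2, adjusted p = 0.0018 and HNRNPD at -0.34 log2, adjusted p = 0.0126. The splicing factor rises were 3 without DMSO replicate 2 and 8 without STM2457 replicate 3, and the falls 7 without STM2457 replicate 1.

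Genes that rose had a greater annotated exon length and stood higher in the m6A pulldown than genes that fell. This length covers all annotated exons of a gene and is not that of a single transcript. RPS29, for example, is given 9845 bases. The annotated exon length had a median of 6058 bases in genes called up, 3885 in genes called down and 5375 in genes not called. m6A enrichment was taken as the log2 ratio of pulldown over input in the 1 day DMSO cells, libraries that do not enter the comparison, and its median was 0.77 in genes called up, -1.19 in genes called down and -0.12 in the rest. In the quintile of genes with the least enrichment 5.32% rose and 27.0% fell. In the quintile with the most 20.2% rose and 7.36% fell. Among the leading rises FOXC1 (1.88), CHRM1 (2.06) and PLXNA4 (1.52) were enriched in the pulldown, and ARHGEF28 (-0.92) and SAMD11 (-0.33) were not. BCL2 stood high (3.10), while RET (-2.11) rose from the depleted side.

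The enrichment pattern was present in every quintile of annotated exon length. Within each quintile of exon length the median log2 change was higher in the most enriched than in the least enriched quintile of 511 genes. It was 0.059 against -0.265 in the shortest genes and 0.148 against -0.004 in the longest. In the shortest genes 48.5% of the least enriched and 11.2% of the most enriched fell. Across the 12773 genes the Spearman correlation of the change with enrichment was 0.253 and with exon length 0.173, given as descriptions of genes that share libraries. Enrichment and level are linked, since the least enriched quintile had a median level of 5.64 log2 CPM and the most enriched 3.97. Among genes with a mean of at least 10 CPM the median enrichment was 0.75 in genes called up and -1.48 in genes called down. Without the ribosomal, respiratory chain and amino acid response lists the shares of genes falling in the least and most enriched quintiles were 24.6% and 7.04%. Lists with many falls lay on both sides of the pulldown ratio. The median enrichment was -3.71 for ribosomal proteins, -1.91 for the nuclear respiratory chain and -2.74 for glycolysis. It was -0.06 for the hypoxia, 0.12 for the p53 and arrest, 0.40 for the glial and 0.76 for the MAPK feedback list. The adrenergic list, in which more genes rose than fell, was at 1.65. The amino acid response list stood at -0.63, and INHBE (2.65), CHAC1 (2.66) and STC2 (2.90) fell from a high enrichment.

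**Figure D4:**
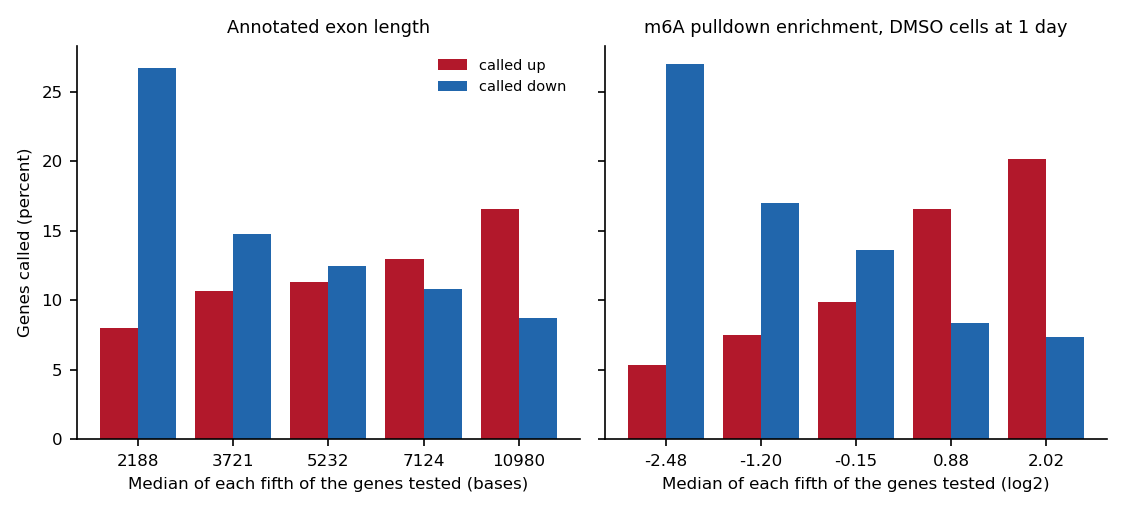
Percent of genes called up (red) and called down (blue) in each quintile of the 12773 genes tested, ordered by annotated exon length (left, labelled with the median in bases) and by m6A pulldown enrichment in Kelly cells given DMSO for 1 day (right, labelled with the median log2 ratio). The share that fell goes from 26.7% to 8.69% with length and from 27.0% to 7.36% with enrichment, and the share that rose goes the other way.

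The response at 6 days was set against that at 1 day, with the difference of the responses tested over the 12 Kelly inputs. It differed in 8.41% of the genes. Of the 24 leading genes 18 differed, each in the direction of its 6 day change. They were chosen for large changes in the same 6 day libraries, which favours differences in that direction. SAMD11 had a log2 change of 0.27 at 1 day and 1.63 at 6 days (difference 1.38, adjusted p = 7.93e-08). AQP1 went from -0.01 to -2.46 (difference -2.42, adjusted p = 2.86e-07). The difference for CDKN1C was -3.54 (adjusted p = 1.28e-05), but its counts at 1 day were too low for a change to be given there. Of the 22 with a value at 1 day, 20 had the same sign there, and the share over all genes is not given. Ribosomal proteins were part of the later response: their median was -0.10 at 1 day and -0.39 at 6 days, and 32 of 76 were lower in the 6 day response, against 8.41% of all genes differing. The same count was 21 of 63 for the nuclear respiratory chain and 9 of 15 for catecholamine genes. TH changed by -0.35 at 1 day and -1.01 at 6 days (difference -0.64, adjusted p = 0.000449). GFRA2 changed by 0.11 and 1.33 (difference 1.24, adjusted p = 5.04e-10). CHRM1, RWDD3, NT5C1A, RHPN1, NDUFA4L2 and CABP7 did not pass this test, and CHRM1, NDUFA4L2 and CABP7 passed with DESeq2. The calls of TRIL and C2CD4B were each lost without either of 2 single libraries. The days were separate experiments with separate controls, and the time and the experiment cannot be told apart.

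Between the lines the difference in response was found in 1.36% of the genes, with NGP also given 8 µM for 6 days. The count, 183, went down to between 94 and 111 without any 1 of the 6 Kelly libraries and up to 276 without NGP STM2457 replicate 2. Of the 24 leading genes, chosen for large changes in the same Kelly libraries, 8 differed. Of these the calls of RHPN1 and SEMA5B were lost when single Kelly libraries were left out. DKK1 changed by 0.29 in NGP and -2.27 in Kelly (difference -2.54, adjusted p = 1.04e-07). FOXC1 and RHBG went the same way in both lines and further in NGP, by 3.68 and 6.77 log2 (adjusted p of the difference 0.00556 and 0.00274). Of the 20 with a value in NGP, 17 had the same sign there, again without a share over all genes. TH had a log2 change of 1.70 in NGP and -1.01 in Kelly (difference -2.77, adjusted p = 0.000967), and 5 of 15 catecholamine genes and 4 of 29 hypoxia genes were lower in the Kelly response, against 1.36% of all genes differing. STC2 and DDIT4 of these hypoxia genes are also in the amino acid response list, and the median of the whole hypoxia list was -0.47 in NGP and -0.33 in Kelly. Ribosomal proteins had a median of -0.52 log2 in NGP. The NGP libraries held 5.49 to 11.6 M fragments, which limits this comparison. The amino acid response list had a median of -0.18 in NGP and -0.95 in Kelly, and 20 of 52 were lower in the Kelly response.

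**Figure D5:**
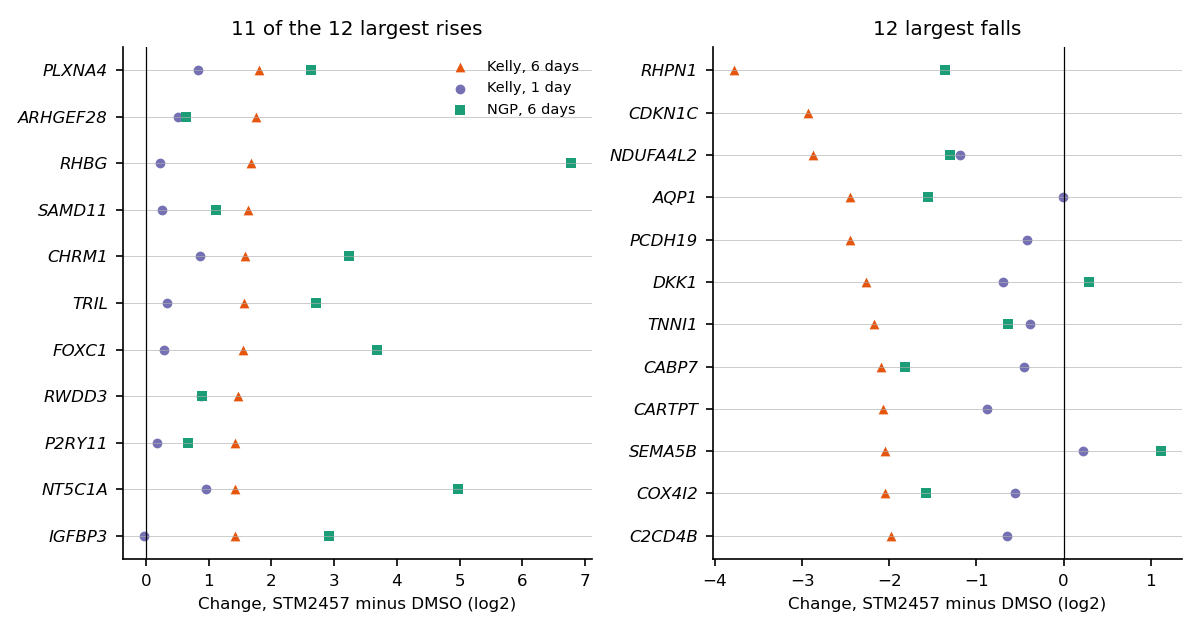
Log2 change (STM2457 minus DMSO) of 11 of the 12 largest rises (left) and of the 12 largest falls (right) of Kelly cells at 6 days (orange triangles), in Kelly cells at 1 day (purple circles) and in NGP cells at 6 days (green squares), where a gene passed the filter on low counts of that comparison. At 1 day most points have the sign of the 6 day value and lie nearer 0. In NGP most of the rises shown lie further out, namely RHBG, NT5C1A, FOXC1, CHRM1, IGFBP3, TRIL and PLXNA4.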

How the data were processed

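RNA of Kelly and NGP cultures was sequenced as m6A pulldown and as input. Per the submitters' processing notes, the tools were FastQC 0.11.5, Trimmomatic 0.36, HISAT2 2.1.0, featureCounts of Subread 1.5.3 and deepTools 2.0 on GRCh38 (hg38). The deposited values are the authors' raw fragment counts per gene name, per the file headers. The headers name no strand setting, so overlapping genes cannot be told apart. Besides those given in the text, such named genes include SAMD11 (with NOC2L), AQP1 (AC004691.2), CABP7 (ZMAT5), GFAP (CCDC103 and FAM187A) and GLA (RPL36A). CPM values were computed here from these counts with TMM-scaled library totals.

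Genes passing filterByExpr (minimum count 10, minimum total 15) were tested with edgeR 4.0.16 (quasi-likelihood, TMM; limma 3.58.1, R 4.3.3), 3 libraries against 3, two-sided, with Benjamini-Hochberg adjustment over all genes tested and a threshold of 0.05. DESeq2 1.42.0, RLE factors, no filter, a replicate block, wider fits, thinning and leaving out each library were alternatives. Figures were drawn with Python 3.11.15 and matplotlib 3.10.9. m6A enrichment is log2 of pulldown over input with a pseudocount of 1 CPM.

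Named were METTL3 and MAT2A, the 12 largest rises and falls described in the text, in each list the called members with the largest rise and fall (mean of at least 1 log2 CPM) and up to 2 more by p, the highest cell type markers, and the 3 deepest falls of the amino acid response. CA9, DBH, HIF1A, SLC6A2, RPL38, RPS7, RPL37A and RPL24 were added after their values were seen. Members, lists and tests were chosen with earlier results of these data known. Some genes that the naming rule picks are not reported here.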

Additional observations from a re-analysis of the deposited data

Results flagged for a closer look

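The leading genes whose 6 day response differed from another response in a test of the difference itself are given here, as the difference of log2 changes (edgeR's quasi-likelihood test of the interaction, Benjamini-Hochberg adjusted). Groups of 3 libraries were not searched for single outlying libraries. The leading genes were chosen for large changes in the same Kelly 6 day libraries, which favours such differences.

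Between 6 days and 1 day in Kelly cells the rises differed by 0.98 in PLXNA4, 1.26 in ARHGEF28, 1.45 in RHBG, 1.38 in SAMD11, 1.24 in TRIL, 1.28 in FOXC1, 1.25 in P2RY11 and 1.46 in IGFBP3. The largest adjusted p among these was 0.0216, in TRIL. The falls differed by -3.54 in CDKN1C, -2.42 in AQP1, -2.04 in PCDH19, -1.56 in DKK1, -1.76 in TNNI1, -1.18 in CARTPT, -2.27 in SEMA5B, -1.47 in COX4I2 and -1.32 in C2CD4B. The largest adjusted p among these was 0.0184, in C2CD4B. CDKN1C did not pass the filter on low counts at 1 day, so its difference rests on few counts there.

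Between Kelly and NGP at 6 days the difference was 1.12 in ARHGEF28, -5.17 in RHBG, -2.09 in FOXC1, -1.49 in IGFBP3, -2.31 in RHPN1, -2.54 in DKK1 and -3.21 in SEMA5B. The largest adjusted p was 0.0372, in SEMA5B. In RHBG, FOXC1 and IGFBP3 the NGP response was the further from 0.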

How the results depend on the processing

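Of 3396 genes called, 3321 were also called with RLE factors, 3307 without a filter, 3173 with DESeq2, 3293 in a fit over the 12 Kelly inputs and 2615 after thinning to the shallowest library. A fit over all 22 inputs called 791, 340 up and 451 down (43 and 116 at least 2-fold), 780 of them among the 3396, and which of its features lowers the count was not tested. With library totals alone, an alternative chosen after seeing the data, 2670 rose, 152 of them at least 2-fold, and VIM turned to 0.017. Leaving out 1 library at a time gave 2499 to 3585 calls (1089 to 1712 up, 1392 to 1883 down, 89 to 105 and 242 to 308 at least 2-fold), and 814 to 1533 for the 6 day against the 1 day response (1158 with all). The replicate numbers did not pair the libraries: same-numbered deviations correlated at -0.053, -0.044 and 0.05. With the replicate block 3208 genes were called, 1401 up and 1807 down, and 189 of 197 named genes kept their side of the threshold. The comparison with NGP is the least stable: 183 genes with edgeR, 429 with DESeq2, and 94 to 276 leaving out single libraries, where each of the Kelly libraries gave a lower count and NGP STM2457 replicate 2 the highest. Leaving out 1 library turned some log2 changes: PMP22 ran from -0.072 (without DMSO replicate 2) to 0.198, and HMGA2 from -0.365 (without STM2457 replicate 1) to 3.066. The 6 day minus 1 day difference ran from -2.886 to 1.102 in RHPN1 and from -2.257 to 0.073 in NDUFA4L2, both highest without 1 day STM2457 replicate 2. The Kelly minus NGP difference of CABP7 ran from -0.727 to 0.115, highest without Kelly STM2457 replicate 1. Causes were not tested. Restricting the description of transcripts to genes with a mean of at least 10 CPM gave median exon lengths of 6136 bases for genes called up and 3829 for genes called down. Depth limits genes near 1 CPM, most of all in STM2457 replicate 3.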

Other observations

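Some genes outside the description above stood out when all calls were looked through, and they were chosen after their values were seen. EPO, the hormone erythropoietin and a classical target of HIF-2, had 88, 92 and 102 counts in the DMSO libraries and 4, 4 and 6 in the STM2457 libraries, that is 7.57, 7.42 and 8.65 CPM against 0.14, 0.12 and 0.99 CPM. The groups were far apart (log2 change -5.13 ± 0.45 (SE), edgeR adjusted p = 5.27e-07), a deeper fall than that of any hypoxia gene given in the report. TLX1, a homeobox gene, had 26, 20 and 18 counts with DMSO and 1 count in all with STM2457 (adjusted p = 1.57e-05).

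HMGA2, a chromatin protein of embryonic tissue that is a target of let-7, shows what 1 library can do. It was at 1.46, 2.34 and 1.95 CPM with DMSO and at 26.1, 1.16 and 2.15 CPM with STM2457, where 766 of the counts were in replicate 1. The test called it higher (2.48 log2, adjusted p = 0.0355), and without that replicate the change was -0.36 (adjusted p = 0.626).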
